A study of Mus musculus with 4 samples.

Results

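The heart of mice with a deletion of mitochondrial superoxide dismutase was compared with their skeletal muscle, gene by gene, on 2 of the 4 arrays of the series, 1 from d/d heart and 1 from d/d muscle. The d/d (del/del) mice carry a deletion of MnSOD, the product of Sod2, made by crossing homozygous MnSOD flox mice with an MCK-Cre transgenic line. The other 2 arrays are from the heart and the muscle of f/f (flox/flox) mice, which carry the floxed gene, and they are set beside the d/d values throughout. Both tissues compared carry the d/d label, and the comparison is between tissues of 1 genotype. In MCK-Cre mice the promoter of the muscle creatine kinase gene drives Cre in striated muscle, so other cells of a tissue may keep the gene. The labels give no age, sex or number of animals, do not name the muscle, and leave unsaid if the 2 tissues of a genotype came from 1 animal and if RNA was pooled. Each group is 1 array, so the d/d difference between tissues has no replicate check and carries no p-value, and in bulk RNA fewer cells of a type and less RNA per cell cannot be told apart.

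Values are fluorescence intensities of probe sets, after the arrays were scaled to 1 common trimmed mean, called signals here. Signals under 7.51 lie below the floor, the level under which they were treated as not measured. A log2 difference is heart minus muscle, so 1 is 2-fold higher in heart and -1 is 2-fold higher in muscle. With 1 tissue below the floor only a lower bound can be given, written "at least". As a technical yardstick, probe sets of the same gene differed in this log2 difference with an SD of 0.56, over 5129 genes. This is disagreement between probes of single genes and not between animals. A gene is read from its brightest probe set. Taking the median over its probe sets, or leaving out probe sets marked as sharing sequence, moved 33 of the 137 genes named here by over 1.5-fold and took 3 of them below 2-fold, and those log2 differences are given beside the gene.

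Heart and skeletal muscle are both striated muscle and share the sliding filament machinery, yet each builds it largely from its own gene copies. The adult mouse ventricle uses cardiac troponins, the alpha myosin heavy chain and a slow calcium pump held in check by phospholamban, and it is coupled cell to cell through intercalated discs. Fast skeletal fibres use their own troponins and myosins, a fast calcium pump and parvalbumin, and they fire only through nerve contacts. The heart burns mostly fatty acids, whereas fast fibres store glycogen and run on glycolysis. MnSOD turns superoxide into hydrogen peroxide in the mitochondrial matrix, on which both tissues depend.

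The arrays matched their tissue labels, with cardiac genes high in heart and fast fibre genes high in muscle in both genotypes. Between 58.0% and 61.1% of probe sets lay above the floor. The log2 signals of d/d heart and d/d muscle correlated at 0.905 across probe sets, those of the f/f tissues at 0.919, the 2 hearts at 0.973 and the 2 muscles at 0.978. The 3' to 5' ratio of control probe sets is higher where RNA is less intact or less fully copied. For actin it was 1.37 and 1.40 in the hearts and 1.11 in both muscles, so it moved with the tissue. For Gapdh it was 0.90 in d/d heart, 0.85 in d/d muscle, 0.85 in f/f heart and 0.87 in f/f muscle, and did not move with the tissue. The part of RNA quality in the differences was not tested. Of 42 spike-in control probe sets, 30 gave more signal with d/d heart than with d/d muscle after scaling, with a median ratio of 1.10. Sod2, measured by 4 probe sets, stood to no one side between the d/d tissues: the log2 differences averaged -0.10 (SD 0.66 between probe sets), with 2 of the 4 higher in heart. The probe set with the brightest signal read 1927 in d/d heart, 1732 in d/d muscle, 2330.3 in f/f heart and 1668 in f/f muscle. Over the 4 probe sets the d/d signal was 43.0% to 86.2% of the f/f signal in heart and 73.9% to 104% in muscle, so in muscle the brightest one was not lower in d/d, and the deletion could not be read from it. The position of these probe sets in relation to the deletion was not analysed here. Ckm, the creatine kinase gene whose promoter drives Cre, read 4097 in d/d heart, 9040.4 in d/d muscle, 4256 in f/f heart and 8826 in f/f muscle. Its own transcript was thus 2.21-fold higher in d/d muscle, a log2 difference of -1.14. That difference was -0.68 without scaling and -2.69 by the median over probe sets.

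Of 14124 genes measured on at least 1 d/d array, 2134 were at least 2-fold higher in heart (15.1%) and 1485 at least 2-fold higher in muscle (10.5%). Wide differences, of at least 8-fold, were found for 186 genes toward heart (1.32%) and 155 toward muscle (1.1%), 66 and 67 of which are bounds only. At 32-fold, 44 genes stood toward heart (0.312%) and 56 toward muscle (0.396%). In the f/f mice, with 14364 genes measured, 1741 (12.1%) and 1192 (8.3%) passed 2-fold and 138 (0.961%) and 146 (1.02%) passed 8-fold. Wide differences toward muscle were mostly shared between genotypes: 119 of the 155 were also 8-fold in f/f mice, 76.8% of the d/d list and 81.5% of the f/f list. Toward heart 93 of the 186 were, 50% of the d/d list and 67.4% of the f/f list. The other 93 were less wide in f/f mice. Of those, 67 stood 2-fold to under 8-fold toward heart in f/f, 22 were under 2-fold either way and 4 stood at least 2-fold toward muscle. Over all measured genes, 3.86% had a heart signal at least 2-fold higher in d/d than in f/f and 3.58% a lower one, and 2.66% and 2.72% had such a muscle signal. Of the 93, the heart signal of 38 was at least 2-fold higher in d/d with no such change in muscle, the muscle signal of 12 was at least 2-fold lower with no such change in heart, both held for 17 and neither for 26. For the 36 genes wide only in d/d toward muscle, the corresponding counts were 16 with a lower heart signal, 3 with a higher muscle signal, 1 with both and 16 with neither. The difference between genotypes could not be tested with 1 array a group.

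**Figure D1:**
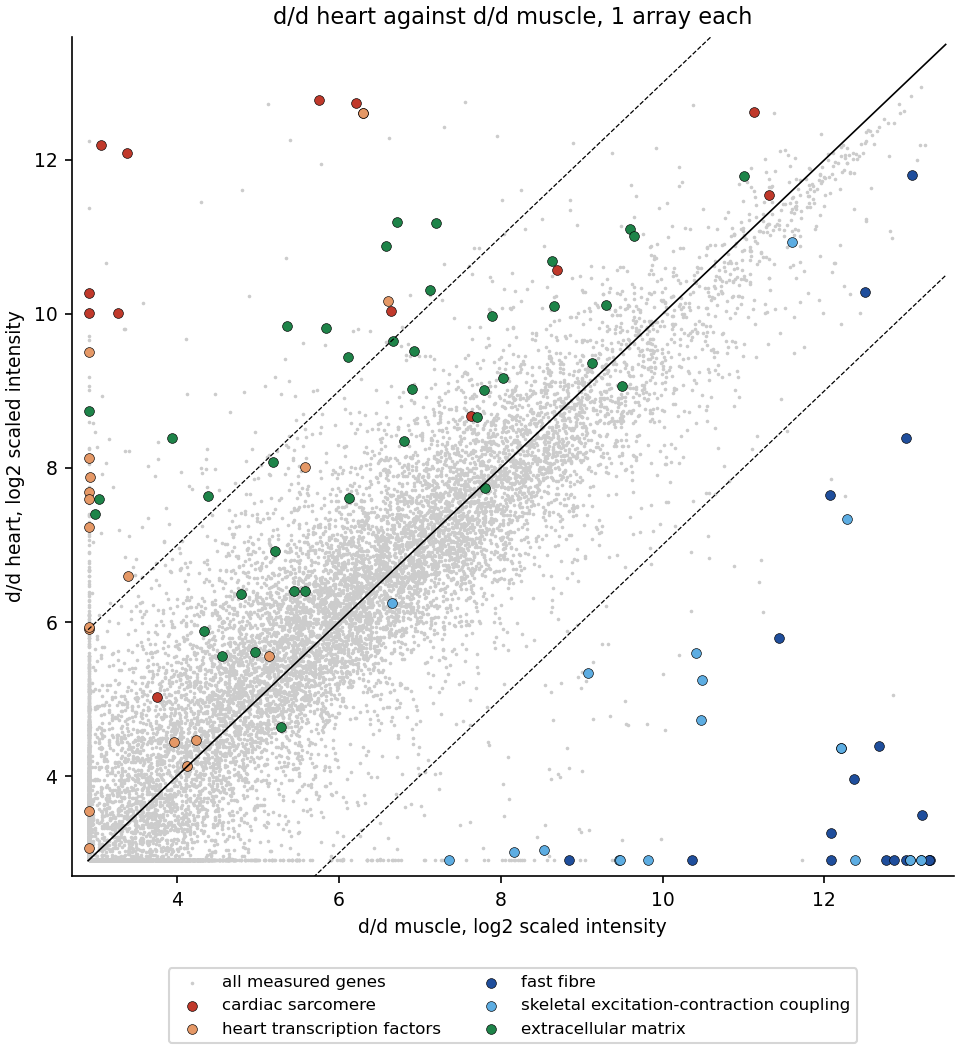
Log2 scaled intensity of each measured gene on the d/d heart array (vertical) and the d/d muscle array (horizontal), with 5 gene lists coloured, a solid line at equal signal and dashed lines at 8-fold. Fast fibre and skeletal coupling genes lie below the line, 11 of 21 and 7 of 17 of them on the lower edge, where the heart signal is at the floor. All 14 cardiac sarcomere genes and 36 of 39 matrix genes lie above it, 9 and 12 of them at or above 8-fold.

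The test that the 4 arrays allow is of the tissue difference averaged over the genotypes. With tissue and genotype as terms, limma has 1 residual degree of freedom and counts a tissue difference that depends on genotype as error. Of 13497 genes tested it called 1076 higher in heart (7.97%) and 764 higher in muscle (5.66%) at a Benjamini-Hochberg adjusted p of 0.05. Among the genes wide in d/d mice it called 155 of 186 toward heart and 152 of 155 toward muscle. Those genes were picked on the d/d arrays, which are also in the fit. These counts, and the p-values of genes named for their d/d difference, are therefore no independent support. With any 1 of the 4 arrays left out, and tissue as the only term, limma called 0 genes either way, with 1477 to 2244 genes at an unadjusted p under 0.05 toward heart and 1302 to 1818 toward muscle. Because nothing says the arrays hold separate animals' RNA, these p-values measure only the spread between these arrays.

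Cardiac contractile genes were among the widest ratios toward heart. Tnni3, the inhibitory troponin of adult heart, read 4667 in d/d heart, 8.30 in d/d muscle, 5308 in f/f heart and 86.8 in f/f muscle. It was 562-fold higher in d/d heart than d/d muscle, against 61.1-fold in f/f mice, and the signals show that the hearts were alike and that the muscles were not. Mybpc3, cardiac myosin-binding protein C, read 4359 in d/d heart, 10.4 in d/d muscle, 3755 in f/f heart and 47.9 in f/f muscle, a ratio of 420.1 in d/d mice. Tnnt2, the cardiac troponin that binds tropomyosin, was 131-fold higher, with 7032 in d/d heart and 53.8 in d/d muscle, a log2 difference of 7.03 that was 5.02 without shared-sequence probe sets. Both genes, like Tnni3, had nearly equal signals in the hearts and a lower one in d/d than in f/f muscle. By limma, which averages the genotypes, the 3 stood 7.53 (SE 0.72, adjusted p 0.00393), 7.50 (SE 0.57, adjusted p 0.00175) and 6.26 (SE 0.42, adjusted p 0.00108) toward heart.

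Of the 14 genes of the cardiac sarcomere list, 13 were at least 2-fold and 9 at least 8-fold higher in d/d heart, and limma called 12. The median log2 difference was 6.42 in d/d and 5.01 in f/f mice, against 0.01 and 0.02 over all measured genes. Within muscle 5 of the 14 members were at least 2-fold lower in d/d than in f/f and 0 higher, and within heart 0 passed 2-fold either way. Myh6, the alpha myosin heavy chain, read 6827 in d/d heart, 74.1 in d/d muscle, 7171 in f/f heart and 186 in f/f muscle. Other members were equally low in both muscles. Mylk3, the cardiac kinase of myosin light chains, read 1029.5 in d/d heart, 9.64 in d/d muscle, 1307 in f/f heart and 9.51 in f/f muscle, a d/d ratio of 107, and the atrial light chain Myl7, below the floor in both muscles, was at least 164-fold higher in d/d heart. At the narrow end were Actc1, cardiac actin, at 6286 in d/d heart and 2241 in d/d muscle, and Smpx, a small muscle protein, at 2985 and 2552.

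Genes used by both the ventricle and slow skeletal fibres showed the same arrangement. Of 14 members, 11 were higher by at least 2-fold in d/d heart, with a median of 3.58 against 2.26 in f/f, and 6 were at least 2-fold lower in d/d than in f/f muscle. Csrp3, the muscle LIM protein of the Z-disc, read 5094 in d/d heart, 249 in d/d muscle, 4764 in f/f heart and 1979 in f/f muscle. It went from 2.41-fold toward heart in f/f to 20.5-fold in d/d mice, through muscle alone. Myl2, the ventricular and slow light chain, read 6927 in d/d heart, 189 in d/d muscle, 6978 in f/f heart and 764 in f/f muscle, and Myoz2, a calcineurin-binding Z-disc protein, read 4346 in d/d heart, 663 in d/d muscle, 4765 in f/f heart and 1897 in f/f muscle. Fhl2, a LIM protein of heart, was at least 354-fold higher in d/d heart and 188-fold in f/f. Slow skeletal genes were mixed. Sln, sarcolipin, a regulator of calcium pumps, read 562 in d/d heart, 41.6 in d/d muscle, 855 in f/f heart and 152 in f/f muscle, lower in d/d than in f/f muscle, and its d/d difference of 3.76 was 1.88 by the median over probe sets. Tnnt1, slow troponin T, read 39.1 in d/d heart, 52.0 in d/d muscle, 44.0 in f/f heart and 51.4 in f/f muscle, and Tnni1, slow troponin I, read 1.06 in d/d heart, 39.6 in d/d muscle, 12.3 in f/f heart and 45.0 in f/f muscle, with little between the muscles. Mb, myoglobin, which stores oxygen, stood at 7296 in d/d heart and 8593 in d/d muscle, a difference of -0.24 that was 0.23 without scaling.

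Fast fibre genes gave the widest differences of all. All 21 members were higher by at least 2-fold in d/d muscle and 19 at least 8-fold, with a median of -8.83 in d/d and -8.65 in f/f mice, and limma called all 21. Tnni2, fast troponin I, read 1.33 in d/d heart, 10128 in d/d muscle, 2.38 in f/f heart and 9717 in f/f muscle, at least 1348-fold higher in d/d muscle. Tnnt3, fast troponin T, at least 1333-fold, and Actn3, the actinin of fast Z-discs, at least 1333-fold, were alike, and both lay below the floor in both hearts. Atp2a1, the fast calcium pump, read 3.27 in d/d heart, 9378 in d/d muscle, 24.1 in f/f heart and 8366 in f/f muscle, and the calcium buffer Pvalb read 2.03 in d/d heart, 8542 in d/d muscle, 15.7 in f/f heart and 7344 in f/f muscle. Their muscle signals were near the top of the scale in both genotypes, and what differed was a small heart signal that was above the floor in f/f and below it in d/d. Tnnc2, fast troponin C, read 0.972 in d/d heart, 7413 in d/d muscle, 16.1 in f/f heart and 7005 in f/f muscle, in the same way. With both d/d arrays above the floor, Mylpf, the fast regulatory light chain, stood 841-fold toward muscle, Myh2, the IIa myosin heavy chain, 455-fold, Myoz1, a Z-disc protein of fast fibres, 339-fold, and Mybpc2, fast myosin-binding protein C, 312-fold. In heart 6 of the 21 genes were at least 2-fold lower in d/d than in f/f, and 0 higher, and 7 stood at least 1 further toward muscle in d/d. By the median over probe sets Tnni2 stood at -9.26 and Myoz1 at -6.98, against -10.40 and -8.40.

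The myosin heavy chains placed each tissue. In d/d muscle the IIb, IIx and IIa genes Myh4, Myh1 and Myh2 read 8225, 6941 and 4346, and in d/d heart 1.41, 0.619 and 9.54. The Myh1 difference, -9.85, comes from a probe set marked as sharing sequence and was -2.45 without such probe sets. In d/d heart Myh6 read 6827 and Myh7, the beta chain of slow fibres and fetal ventricle, 3953. Myh7 read 3953 in d/d heart, 55.1 in d/d muscle, 1140.0 in f/f heart and 107 in f/f muscle. It was 71.8-fold higher in heart in d/d and 10.6-fold in f/f mice, higher on the d/d than the f/f heart array and lower on the d/d than the f/f muscle array. Signals of different probe sets are not comparable with each other, so these give each gene's own order across arrays.

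Short stretches before the start sites of some genes at the 2 ends of the comparison are printed as examples, and not as typical of a list. RefSeq promoters on GRCm38.p6 were matched for 13 of the 14 cardiac sarcomere genes (18 promoters) and 15 of the 21 fast fibre genes (16 promoters). The motifs searched, on both strands in the 250 bases before the start, were the M-CAT element CATTCC, the TATA box TATAAA, the GATA site AGATAA, the E-box CAGCTG, and the MEF2 and CArG boxes by name. Capitals mark matches, and GGAATG is CATTCC on the other strand. The 150 bases before the start of Nppb (chr4:147985750-147985899, plus strand), Tnnc1 (chr14:31208162-31208311, plus strand), Myh4 (chr11:67237662-67237811, plus strand) and Tnnc2 (chr2:164779735-164779884, minus strand) are given 5′ to 3′.
Nppb: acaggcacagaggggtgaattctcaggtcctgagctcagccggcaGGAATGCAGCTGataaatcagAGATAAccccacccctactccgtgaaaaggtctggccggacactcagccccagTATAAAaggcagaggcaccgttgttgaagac
Tnnc1: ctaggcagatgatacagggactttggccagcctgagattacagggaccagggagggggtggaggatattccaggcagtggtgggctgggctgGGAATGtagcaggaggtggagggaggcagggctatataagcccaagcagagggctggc
Myh4: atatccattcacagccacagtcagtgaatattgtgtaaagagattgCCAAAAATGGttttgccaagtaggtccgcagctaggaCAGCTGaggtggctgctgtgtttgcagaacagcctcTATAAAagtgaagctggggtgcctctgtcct
Tnnc2: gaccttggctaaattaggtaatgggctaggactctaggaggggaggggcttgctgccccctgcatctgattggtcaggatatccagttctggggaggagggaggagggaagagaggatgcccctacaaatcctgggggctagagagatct

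The natriuretic peptide gene Nppb held 4 of these matches, M-CAT, E-box, GATA and TATA, the first pair side by side. Nppb is not a sarcomere gene. Tnnc1, troponin C of heart and slow fibres, held 1, an M-CAT. The same stretches of the heart sarcomere genes Tnni3 and Myh6, not printed, held none of the motifs. Myh4 held a CArG box, an E-box and a TATA box, and Tnnc2 none of the motifs in this stretch. The GATA site was in 7 of the 18 cardiac sarcomere promoters (38.9%), in 0 of the 16 fast fibre promoters and in 9.99% of all 32851 promoters. For the E-box the shares were 11.1%, 50% (8 promoters) and 13.0%. M-CAT was in 33.3%, 37.5% and 12.6%, and the TATA box in 0%, 25% and 12.4%. The CArG box was in 16.7%, 6.25% and 1.47%, and the MEF2 box in 5.56%, 0% and 0.508%. Among promoters of all measured genes, 6.43% held the GATA site, 12.5% the E-box and 11.1% M-CAT. The GATA site was in 12.2% of 180 promoters of genes wide toward heart and 7.32% of 164 of those wide toward muscle. For the E-box these shares were 14.4% and 18.3%. Promoters of 1 gene can overlap. A match is a description of letters and not of binding, and its absence says only that these letters are not in this window.

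Of 8 measured genes for natriuretic peptides and their receptors, 3 were wide toward heart in d/d mice, and the same 3 were wide in f/f mice. The other members differed by less than 2-fold between the d/d tissues. The list's medians were 0.68 in d/d and 0.35 in f/f mice. Nppb, which encodes B-type natriuretic peptide, a hormone of stretched ventricle, read 4873 in d/d heart, 1.34 in d/d muscle, 1945 in f/f heart and 39.7 in f/f muscle. It was at least 649-fold higher in d/d heart and 48.9-fold in f/f heart. Nppa, atrial natriuretic peptide, read 6781 in d/d heart, 34.8 in d/d muscle, 3658 in f/f heart and 144 in f/f muscle, a ratio of 195 against 25.4. Both were higher on the d/d than on the f/f heart array and lower on the d/d than on the f/f muscle array. Corin, the protease that activates these peptides, went the other way in heart: it read 533 in d/d heart, 3.66 in d/d muscle, 1047 in f/f heart and 8.71 in f/f muscle.

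The heart failure and fetal program list had a median of 3.37 in d/d mice and 0.42 in f/f mice. Of its 19 measured members 15 were at least 2-fold and 10 at least 8-fold higher in d/d heart than d/d muscle, and limma called 5 toward heart and 1, Acta1, toward muscle. For 18 of the 19 the tissue difference was at least 1 further toward heart in d/d than in f/f (8.04% of all genes measured). Within heart 16 were higher by at least 2-fold in d/d than in f/f, and within muscle 4 were at least 2-fold lower. The list is not separate from others: it shares 3 members with matrix, 2 with cardiac sarcomere and 2 with natriuretic peptides and receptors. Outside the matrix list, its 16 members had medians of 2.72 in d/d and 0.19 in f/f mice, and 12 of them passed 2-fold toward heart in d/d mice. Serpina3n, an acute-phase protease inhibitor, read 217 in d/d heart, 0.733 in d/d muscle, 14.2 in f/f heart and 3.78 in f/f muscle. Lgals3, galectin-3, read 517 in d/d heart, 88.0 in d/d muscle, 44.6 in f/f heart and 54.0 in f/f muscle, and Rcan1, a calcineurin target that feeds back on it, read 700.1 in d/d heart, 139.5 in d/d muscle, 266 in f/f heart and 273 in f/f muscle. The f/f tissues were nearly level for the last 2 genes, and d/d heart stood alone above the other 3 arrays. Nmrk2, a kinase that makes NAD from nicotinamide riboside, read 2041 in d/d heart, 1077 in d/d muscle, 43.8 in f/f heart and 681 in f/f muscle. Its f/f difference of -3.96 toward muscle became 0.92 toward heart. Acta1, skeletal actin, kept muscle ahead, with read 4668 in d/d heart, 9333 in d/d muscle, 1499 in f/f heart and 8635 in f/f muscle, so muscle was ahead by 5.76-fold in f/f and by less in d/d mice.

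Matrix genes stood toward heart in d/d mice and not in f/f mice, and some of them widely. Of 39 measured members 29 were at least 2-fold and 12 at least 8-fold higher in d/d heart (15.1% and 1.32% of all genes measured). Of those 12, 0 were 8-fold in f/f. The median was 1.58 in d/d and -0.35 in f/f mice. For 36 of the 39 the difference stood at least 1 further toward heart in d/d (8.04% of all genes measured). In heart 26 were higher by at least 2-fold in d/d than in f/f and 0 lower, while in muscle 9 were at least 2-fold lower and 0 higher. Limma, for which such a dependence on genotype is error, called 3 of 38 toward heart. Mfap4, a microfibril protein, read 429 in d/d heart, 1.95 in d/d muscle, 7.14 in f/f heart and 1.60 in f/f muscle, at least 57.1-fold higher in d/d heart and with neither f/f array above the floor. Timp1, an inhibitor of matrix proteases, read 193 in d/d heart, 8.18 in d/d muscle, 19.2 in f/f heart and 17.6 in f/f muscle, so d/d heart was high and the other arrays low.

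Among the matricellular genes, Comp, a pentameric matrix protein of cartilage and tendon, read 900.4 in d/d heart, 57.1 in d/d muscle, 49.2 in f/f heart and 108 in f/f muscle. It was 15.8-fold higher in heart in d/d mice and 2.19-fold higher in muscle in f/f mice. Cilp, a matrix protein known in injured heart and cartilage, read 696 in d/d heart, 69.2 in d/d muscle, 44.9 in f/f heart and 265 in f/f muscle, and it turned from 5.91-fold toward muscle to 10.1-fold toward heart, with the highest signal in d/d heart and the next in f/f muscle. Ccn5 read 335 in d/d heart, 15.3 in d/d muscle, 25.4 in f/f heart and 30.8 in f/f muscle and its relative Ccn2, connective tissue growth factor, read 2348 in d/d heart, 105 in d/d muscle, 431 in f/f heart and 112 in f/f muscle. Postn, periostin, made by activated fibroblasts, read 1895 in d/d heart, 96.1 in d/d muscle, 291 in f/f heart and 161 in f/f muscle. The d/d heart was the highest array for all of these. By limma none but Ccn2 (adjusted p 0.0263) was called for the averaged difference, with adjusted p from 0.085 to 0.861 for Postn, Ccn5, Comp and Cilp.

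Collagens and their processing enzymes followed with narrower ratios. Col8a1, a short-chain collagen, read 922 in d/d heart, 41.1 in d/d muscle, 110.0 in f/f heart and 67.2 in f/f muscle, a d/d ratio of 22.4. Col1a1 and Col1a2, the chains of type I collagen, stood toward muscle in f/f mice, at -2.11 and -2.07, and toward heart in d/d mice, at 0.96 and 0.82, short of 2-fold. A dimmer probe set of Col1a1 gave -0.40 in d/d mice, and the median over its probe sets 0.28. Col1a1 read 407 in d/d heart, 209 in d/d muscle, 132 in f/f heart and 572 in f/f muscle, with d/d heart above f/f heart and d/d muscle below f/f muscle. Lox, which cross-links collagen and elastin, read 196 in d/d heart, 69.7 in d/d muscle, 16.9 in f/f heart and 128 in f/f muscle, and P3h2, which hydroxylates collagen prolines, read 55.6 in d/d heart, 3.78 in d/d muscle, 16.7 in f/f heart and 38.3 in f/f muscle. In both genes f/f muscle stood above f/f heart and d/d heart above d/d muscle. Thbs4, a thrombospondin of tendon and stressed heart, read 658 in d/d heart, 559 in d/d muscle, 48.9 in f/f heart and 747 in f/f muscle, so the tissues were level in d/d mice and 15.3-fold apart in f/f.

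**Figure D2:**
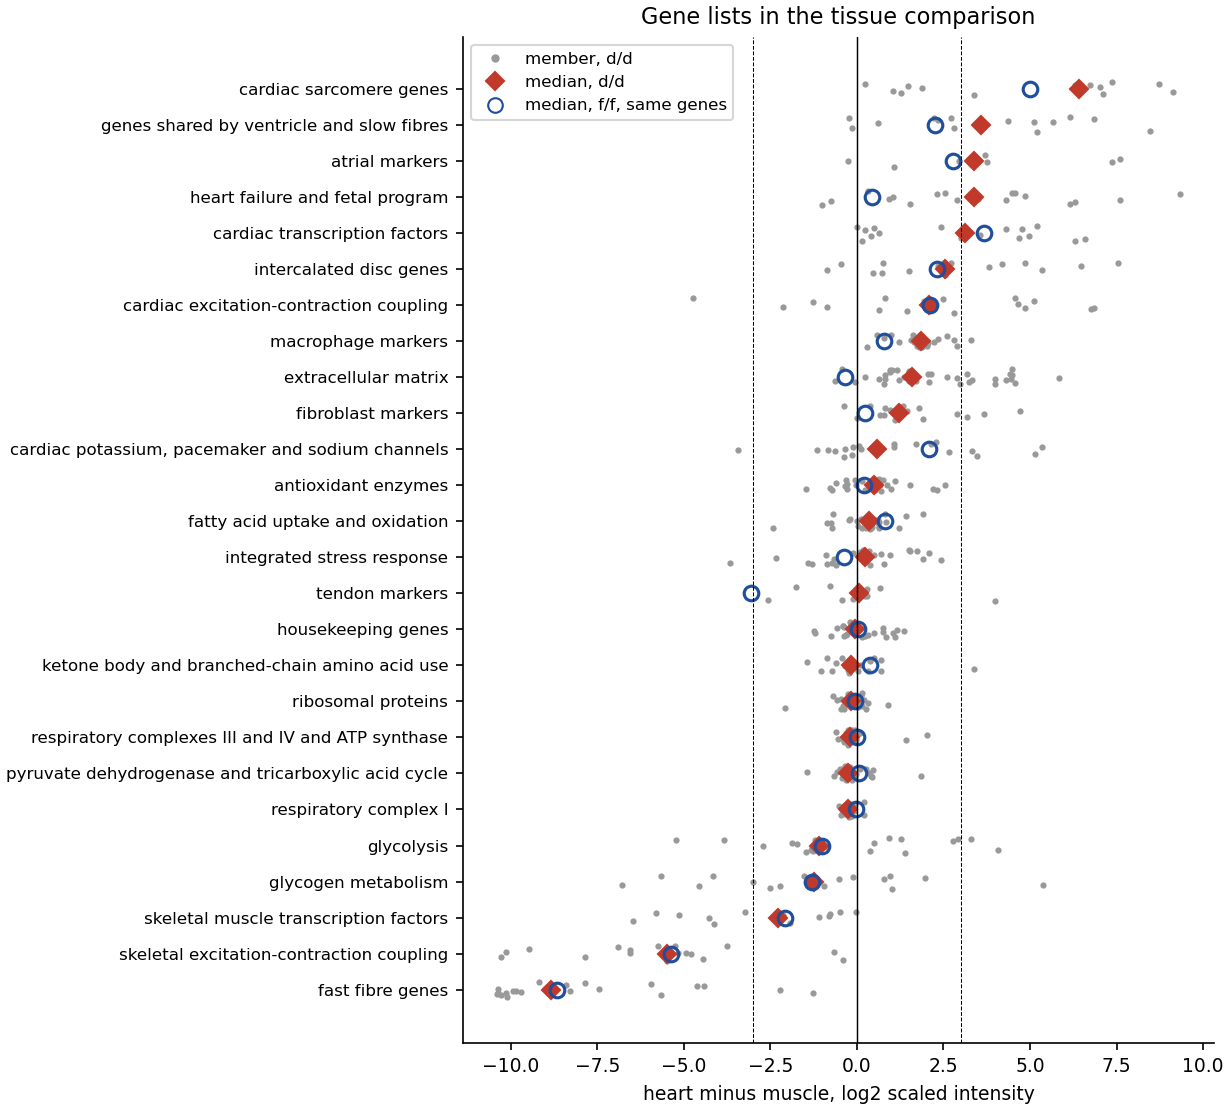
Log2 heart minus muscle difference for each measured member of 26 gene lists in d/d mice (grey points), with the list's median in d/d (red diamond) and of the same genes in f/f mice (blue circle). Dashed lines mark 8-fold. The d/d and f/f medians lie close together for fast fibre genes (-8.83 and -8.65) and far apart for tendon markers (0.07 and -3.07), the heart failure program (3.37 and 0.42) and matrix (1.58 and -0.35).

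Fibroblast, macrophage and tendon markers stood further toward heart in d/d than in f/f mice, as the matrix genes did. The median d/d minus f/f differences were 0.95, 1.17 and 2.73, against 2.53 for matrix. For markers of other cells they were smaller or toward muscle, from 0.50 for lymphocytes to -0.63 for atria. The part of these cells in the matrix values was not tested. Of 16 fibroblast markers, 5 of which are also matrix genes, 9 were higher by at least 2-fold in d/d heart. Their summed signals were 14882 in d/d heart, 7186 in d/d muscle, 10018 in f/f heart and 10149 in f/f muscle. The 11 outside the matrix list had a median of 1.33 in d/d and 0.41 in f/f mice. Tcf21, a transcription factor of cardiac fibroblasts, was at least 26.3-fold higher in d/d heart and 19.4-fold in f/f heart, while Pi16, a marker of adventitial fibroblasts, read 499 in d/d heart, 39.1 in d/d muscle, 230.3 in f/f heart and 123 in f/f muscle. The Tcf21 difference of 4.72 was 2.88 by the median over probe sets. That of Pi16, 3.68, was 1.84 by the median and lost without shared-sequence probe sets, where both tissues lay at the floor. All 20 macrophage markers stood above 0 in d/d mice. By at least 2-fold, 16 were higher in d/d heart, against 5 in f/f (15.1% and 12.1% of all genes measured). Their summed signals were 4094 and 1104 in d/d heart and muscle and 2886 and 1686 in f/f. The complement gene C1qc read 339.6 in d/d heart, 48.2 in d/d muscle, 209 in f/f heart and 76.7 in f/f muscle, and the chemokine receptor Cx3cr1 read 73.3 in d/d heart, 3.78 in d/d muscle, 25.2 in f/f heart and 6.07 in f/f muscle, a difference of 3.29, or 2.08 by the median over probe sets. Tendon markers summed to 2478 in d/d heart and 1735 in d/d muscle, but to 552 in f/f heart and 3160 in f/f muscle. Of the 10 tendon markers 3 are also matrix genes. The 7 outside the matrix list had medians of -0.10 in d/d and -2.21 in f/f mice, and 0 were 2-fold higher in d/d heart. Their median d/d minus f/f difference was 1.60. Tnmd, tenomodulin, a tendon gene, read 105 in d/d heart, 113 in d/d muscle, 1.53 in f/f heart and 302 in f/f muscle, and Fmod, fibromodulin, read 536 in d/d heart, 722 in d/d muscle, 68.3 in f/f heart and 1225 in f/f muscle: f/f heart was the low array for both.

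The remaining marker lists are given by their summed signals. Endothelial markers summed to 9221 in d/d heart and 7118 in d/d muscle, with 5 of 19 at least 2-fold higher in heart, and smooth muscle markers to 8182 and 9929. Adipocyte markers summed to 4460 and 11389, most of the latter from Car3, and the defining gene Adipoq read 10.4 and 40.5, with Lep and Ucp1 below the floor on all 4 arrays. Of 15 lymphocyte and 8 neutrophil markers on the array, 7 and 4 were below the floor on both d/d arrays. For Schwann cells and nerve the sums were 867 and 576, with Mbp, a myelin protein, at 16.3 in d/d heart and 128 in d/d muscle. Atrial markers, 8 of 9 of them at least 2-fold higher in d/d heart, summed in heart to 10161 (d/d) and 8435 (f/f) and in muscle to 245 (d/d) and 456 (f/f), and the atrial light chain Myl7 was lower in d/d (1234) than in f/f heart (2193). Mesothelium and epicardium markers were dim, at sums of 262 in d/d heart and 64.2 in d/d muscle. Satellite cell markers summed to 521 and 956, and Pax7, which defines these cells, read 12.9 in d/d muscle and 0.353 in d/d heart.

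**Figure D3:**
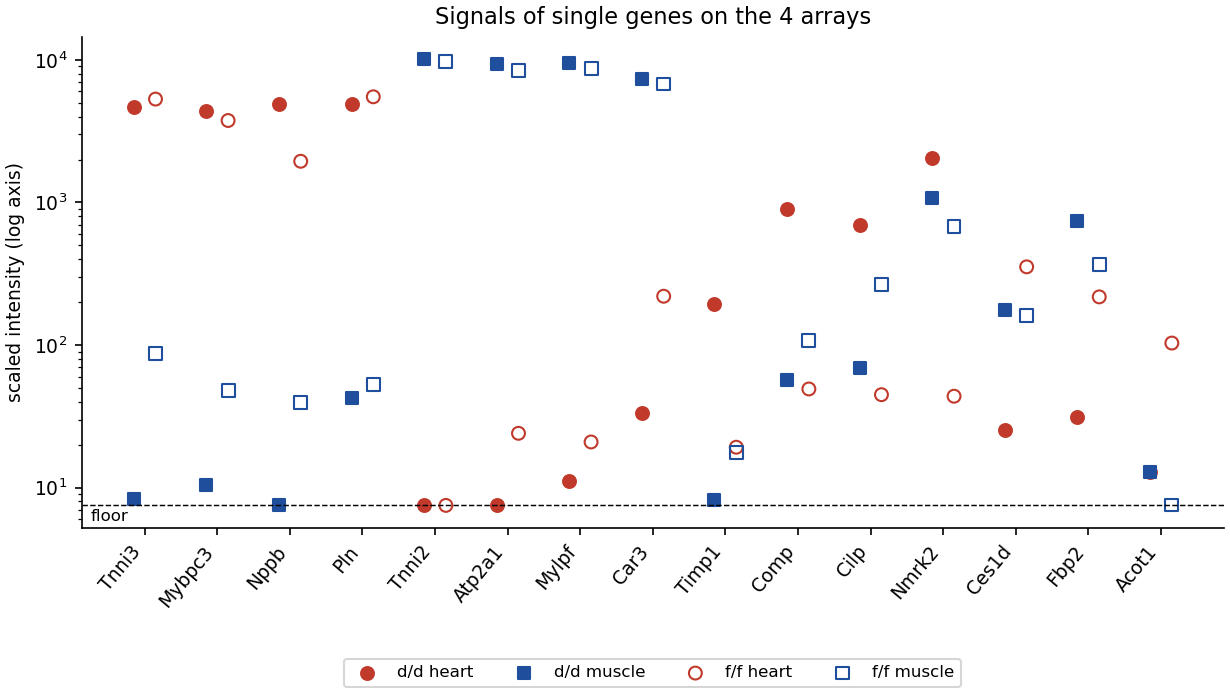
Scaled intensity (log axis) of 15 genes on the 4 arrays, with d/d filled and f/f open, heart as circles and muscle as squares, and signals below the floor drawn at it (dashed line). Tnni3, Mybpc3 and Nppb have high hearts and a lower d/d than f/f muscle, Tnni2, Atp2a1 and Mylpf have high muscles, and Comp, Cilp and Timp1 have d/d heart above the other 3 arrays. For Ces1d, Fbp2 and Acot1 the d/d heart is far below the f/f heart.

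Transcription factors of the cardiac lineage stood toward heart and those of the skeletal lineage toward muscle. Of 18 measured cardiac factors 12 were at least 2-fold and 10 at least 8-fold higher in d/d heart, against 15 at 2-fold in f/f, with medians of 3.12 in d/d and 3.66 in f/f mice. For 4 the difference stood at least 1 further toward muscle in d/d and for 1 further toward heart (7.58% and 8.04% of all genes measured). Tbx20 read 725 in d/d heart and was below the floor in d/d muscle, Nkx2-5 was at least 37.2-fold and Gata4 31.2-fold higher in d/d heart. These factors switch on contractile genes as the heart forms. Hopx, a homeodomain regulator of cardiac maturation, read 1150.0 in d/d heart, 97.4 in d/d muscle, 2978 in f/f heart and 84.9 in f/f muscle, lower on the d/d heart array than on the f/f one. Tbx5, which patterns the chambers, read 22.1 in d/d heart, 18.8 in d/d muscle, 42.4 in f/f heart and 2.98 in f/f muscle: the tissues were apart in f/f mice and level in d/d, although its other probe set stood 2.21 toward heart in d/d. Toward muscle, 10 of 14 skeletal factors passed 2-fold. Myf6, the myogenic factor of mature fibres, was at least 88.8-fold higher in d/d muscle, Tbx15, a factor of fast glycolytic fibres, 55.8-fold and Myod1 at least 9.44-fold. Hox genes, which record limb position, marked muscle too: Hoxc10 was at least 30.6-fold and Hoxa9 at least 20.6-fold higher there, and 0 of 15 measured genes of that list were 2-fold higher in heart. By the median over probe sets Tbx20 stood at 4.61, Gata4 at 4.21, Tbx5 at 1.22, Myod1 at -1.86 and Hoxa9 at -3.43, against 6.59, 4.97, 0.23, -3.24 and -4.36.

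Genes that join heart cells stood toward heart in both genotypes. Of 15 measured intercalated disc genes 10 were higher by at least 2-fold in d/d heart, with medians of 2.54 and 2.32. Dsp, desmoplakin, which anchors desmosomes to filaments, read 1625 in d/d heart, 8.67 in d/d muscle, 1542 in f/f heart and 59.2 in f/f muscle, and all 3 of its probe sets stood at least 6.18 toward heart in d/d mice. Cdh2, the cadherin of the disc, was 88.1-fold higher in d/d and 105-fold in f/f heart, a d/d difference of 6.46, or 5.71 by the median over probe sets. Myzap, a protein of the cardiac disc, was 94.9-fold and 66.8-fold higher.

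Excitation-contraction coupling, the chain from membrane signal to calcium release, used separate genes in the 2 tissues. Of 17 skeletal members 15 were higher by at least 8-fold in d/d muscle, with medians of -5.49 and -5.37, and limma called 15. Ryr1, the calcium release channel of skeletal muscle, read 1.06 in d/d heart, 5318 in d/d muscle, 1.19 in f/f heart and 4866 in f/f muscle, Casq1, its calcium store protein, read 20.7 in d/d heart, 4740.1 in d/d muscle, 45.9 in f/f heart and 4437 in f/f muscle, and Cacna1s, the voltage sensor, read 26.5 in d/d heart, 1420.4 in d/d muscle, 32.4 in f/f heart and 1311 in f/f muscle. Ryr1 and Cacna1s had the same order and nearly the same signals in both genotypes. The cardiac list, of 17 genes, had 11 at least 2-fold higher in d/d heart and 3 in d/d muscle. Ryr2, the cardiac release channel, read 808 in d/d heart, 1.34 in d/d muscle, 1812 in f/f heart and 1.49 in f/f muscle, so it was at least 108-fold higher in d/d heart and at least 241-fold in f/f. Pln, phospholamban, read 4921 in d/d heart, 42.2 in d/d muscle, 5508 in f/f heart and 53.0 in f/f muscle, and Atp2a2, the slow calcium pump it restrains, was 35.0-fold higher in d/d heart and 20.7-fold in f/f. Hrc, a calcium-binding protein of the reticulum, was level in f/f mice (2001 in heart, 2249 in muscle) and 2.39-fold higher in muscle in d/d mice (1035 and 2475), a difference of -1.26 that was -0.79 without scaling. Ryr1 stood at -8.23, Ryr2 at 3.90 and Atp2a2 at 3.75 by the median over probe sets, against -9.47, 6.75 and 5.13.

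Ion channel genes of the heart had a narrower tissue difference in d/d than in f/f mice. The 20 measured channel genes had a median of 0.59 in d/d and 2.09 in f/f mice, 10 and 13 were at least 2-fold higher in heart, and for 8 the difference stood at least 1 further toward muscle in d/d (7.58% of all genes measured). Within heart 7 of the 20 were at least 2-fold lower in d/d than in f/f, 2 were higher in d/d muscle at 2-fold, and limma called 9 toward heart. Kcnh2, which carries the rapid delayed rectifier current, read 86.0 in d/d heart, 17.6 in d/d muscle, 247 in f/f heart and 5.38 in f/f muscle. Its ratio was 4.89 in d/d mice and at least 32.9 in f/f mice, by a lower heart and a higher muscle signal. Kcnip2, a subunit of the transient outward current, read 304 in d/d heart, 2.81 in d/d muscle, 622 in f/f heart and 3.32 in f/f muscle, and stayed at least 40.5-fold higher in d/d heart, a difference of 5.34, or 4.40 by the median over probe sets. Kcnj2, the inward rectifier that sets the resting potential, read 1.15 in d/d heart, 13.3 in d/d muscle, 20.5 in f/f heart and 0.687 in f/f muscle, and Hcn2, a pacemaker channel, read 19.3 in d/d heart, 25.1 in d/d muscle, 36.0 in f/f heart and 8.25 in f/f muscle: both were dim, and each stood toward heart in f/f and toward muscle in d/d, -0.82 and -0.38, the latter 0.08 without scaling. The 11 measured genes of adrenergic and autonomic signals had a median of 1.45 in d/d and 2.08 in f/f mice, and 6 of the 11 stood further toward heart in d/d. By at least 1, 2 stood further toward heart and 3 further toward muscle (8.04% and 7.58% of all genes measured). Adra1b, an adrenergic receptor, read 12.1 in d/d heart, 5.01 in d/d muscle, 54.4 in f/f heart and 1.03 in f/f muscle. Rgs2, which dampens receptor signals, read 96.4 in d/d heart, 88.3 in d/d muscle, 295 in f/f heart and 54.3 in f/f muscle. In both of these genes f/f heart was the high array, and the difference stood further toward muscle in d/d.

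**Figure D4:**
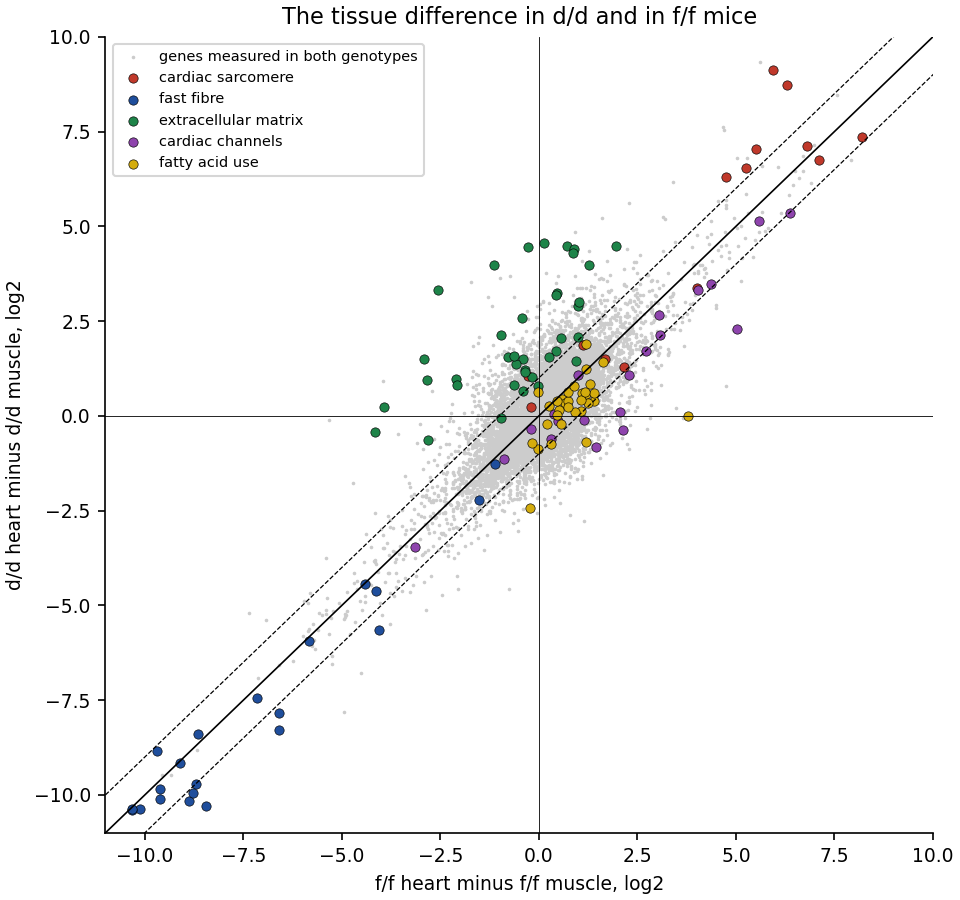
The log2 heart minus muscle difference in d/d mice (vertical) against that in f/f mice (horizontal) for 13107 genes measured in both, with 5 lists coloured, a solid line at equality and dashed lines 1 above and below. All 38 matrix genes drawn lie above the line, 35 of them by at least 1. Below it lie 19 of 21 fast fibre genes, 19 of 20 cardiac channel genes and 28 of 32 fatty acid genes, by at least 1 for 7, 8 and 5 of them.

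Fuel genes split by isozyme. Of 22 glycolytic genes 12 were higher by at least 2-fold in d/d muscle and 6 in d/d heart, with medians of -1.09 in d/d and -1.01 in f/f. Pfkm, the muscle phosphofructokinase, was 3.63-fold higher in d/d muscle (7342 against 2021), while Pfkp, its platelet isoform, was 16.7-fold higher in d/d heart (423 against 25.3). Ldha was 3.31-fold toward muscle and Ldhb 2.61-fold toward heart, the usual division of lactate dehydrogenase. Hk1, the hexokinase of oxidative tissues, was 9.75-fold toward heart. Slc16a3, the lactate exporter of fast fibres, was 37.7-fold toward muscle. Glycogen genes divided likewise: Phkg1, the catalytic subunit of phosphorylase kinase in muscle, read 9.10 in d/d heart, 1009 in d/d muscle, 41.2 in f/f heart and 941 in f/f muscle, Prkag3, the fast-fibre AMPK subunit, was at least 50.5-fold toward muscle, and Pygb, brain-type glycogen phosphorylase, 41.7-fold toward heart. These held in both genotypes, except that Hk1 and Pfkp were at least 8-fold toward heart in d/d mice only. Pfkp stood at 2.94 and Hk1 at 3.89 by the median over probe sets, against 4.07 and 3.29. Fbp2, muscle fructose bisphosphatase, did not: it read 31.4 in d/d heart, 742 in d/d muscle, 218 in f/f heart and 366 in f/f muscle, so muscle was ahead 1.68-fold in f/f mice and 23.6-fold in d/d mice, with a lower heart and a higher muscle signal.

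Fatty acid genes, which favoured heart in f/f mice, did so less in d/d mice. Of 32 members 3 were higher by at least 2-fold in d/d heart, against 14 in f/f mice. Over all genes measured the shares were 15.1% and 12.1%, so in d/d mice the list passed 2-fold no more often than all genes did. The median was 0.36 against 0.81, and 24 members stood above 0 in d/d mice. Within heart 7 were at least 2-fold lower in d/d than in f/f and 0 higher. Fabp3, the heart fatty acid binding protein, kept its 2.34-fold lead in d/d (2.30-fold in f/f), and Cpt1a, the liver form of the carnitine transferase, was 2.69-fold higher in d/d heart. By the median over probe sets neither reached 2-fold, with log2 differences of 0.42 for Fabp3 and 0.38 for Cpt1a against 1.23 and 1.43. Acot1, a thioesterase induced by PPAR-alpha, read 12.9 in d/d heart, 12.9 in d/d muscle, 103 in f/f heart and 7.56 in f/f muscle, so a lead of 13.7-fold in f/f heart was gone in d/d. Ucp3, an uncoupling protein, read 22.5 in d/d heart, 121 in d/d muscle, 303 in f/f heart and 354 in f/f muscle, level in f/f and 5.36-fold toward muscle in d/d mice. Ces1d, a lipid-hydrolysing carboxylesterase, read 25.5 in d/d heart, 175 in d/d muscle, 354 in f/f heart and 161 in f/f muscle, and its 3 probe sets stood between -2.94 and -2.36 in d/d mice. It was higher in heart in f/f and higher in muscle in d/d mice. Car3, a carbonic anhydrase of slow fibres and fat, read 33.1 in d/d heart, 7398 in d/d muscle, 220.0 in f/f heart and 6763 in f/f muscle, 223-fold toward muscle in d/d against 30.7-fold in f/f. Ucp3 stood at -3.18 and Car3 at -5.83 by the median over probe sets, against -2.42 and -7.80. In ketone body use, Bdh1, the dehydrogenase of ketone oxidation, read 1216 in d/d heart, 117 in d/d muscle, 822 in f/f heart and 383 in f/f muscle, and the widening from 2.15-fold to 10.4-fold toward heart lay more in muscle than in heart.

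Respiratory chain genes differed by less than 2-fold between the d/d tissues, with 2 exceptions, and the side they stood on followed the scaling. Of 32 complex I genes 0 passed 2-fold, 30 stood below 0, and the range was -0.52 to 0.22 with a median of -0.26. In f/f mice the median was -0.03. Complexes III and IV and ATP synthase had a median of -0.21 over 37 genes, with 2 toward heart at 2-fold, and the tricarboxylic acid cycle -0.25 over 25. Without scaling these medians were 0.21, 0.25 and 0.22, and with quantile normalization -0.05, 0.07 and -0.07. Relative to the scaling used, the median of all genes moved by 0.44 without scaling and by -0.13 with median scaling. Housekeeping genes had a median of -0.05 and ribosomal proteins -0.16.

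Of 26 antioxidant enzymes 16 stood above 0, and 5 were higher by at least 2-fold in d/d heart (15.1% of all genes measured) and 1 in d/d muscle, with medians of 0.49 and 0.20 in d/d and f/f. Nnt, which makes mitochondrial NADPH, read 1376 in d/d heart, 237 in d/d muscle, 2391 in f/f heart and 314 in f/f muscle, a d/d ratio of 5.81, although 1 of its 3 probe sets stood only 0.35 toward heart. Sod3, extracellular superoxide dismutase, read 138 in d/d heart, 29.8 in d/d muscle, 98.9 in f/f heart and 24.6 in f/f muscle, and Gpx8, a peroxidase of the endoplasmic reticulum, read 224 in d/d heart, 45.0 in d/d muscle, 170.4 in f/f heart and 59.8 in f/f muscle. Heart was above muscle in both genotypes for these. Sod1 read 879 in d/d heart and 754 in d/d muscle, and Cat, catalase, 893 and 645. The side of Sod1 turned with the probe sets, from 0.22 to -0.67 by their median and -0.15 without those that share sequence. In the NRF2 and glutathione list 9 of 24 measured genes were at least 2-fold toward heart and 4 toward muscle (15.1% and 10.5% of all genes measured). Of the 24, 12 stood above 0, and the median was 0.03 (-0.11 with median scaling). Gsto1, a glutathione transferase, was 4.34-fold toward heart, and Gstk1, of mitochondria and peroxisomes, read 182 in d/d heart, 559 in d/d muscle, 671 in f/f heart and 589 in f/f muscle, level in f/f and 3.07-fold toward muscle in d/d.

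Genes of the integrated stress response, by which cells answer mitochondrial or amino acid stress through ATF4, had a median of 0.25 in d/d and -0.36 in f/f mice. Of 27 measured members 6 were at least 2-fold toward heart and 4 toward muscle in d/d (15.1% and 10.5% of all genes measured), against 4 and 10 in f/f. For 8 the difference stood at least 1 further toward heart than in f/f (8.04% of all genes measured). Mthfd2, a mitochondrial folate enzyme, read 114 in d/d heart, 26.9 in d/d muscle, 9.35 in f/f heart and 26.8 in f/f muscle, on the same side on both its probe sets in d/d mice. Asns, asparagine synthetase, read 114 in d/d heart, 34.1 in d/d muscle, 31.1 in f/f heart and 25.7 in f/f muscle, and Aldh18a1, which starts proline synthesis, read 122 in d/d heart, 22.6 in d/d muscle, 50.8 in f/f heart and 23.9 in f/f muscle. The d/d heart was the highest array for all 3. The Aldh18a1 difference of 2.43 was 1.63 by the median over probe sets and 1.02 without shared-sequence ones. Toward muscle stood Chac1, which degrades glutathione, at 39.1 in d/d heart and 498 in d/d muscle, and Atf4 itself, at 388 and 956, both much as in f/f mice (-3.40 and -1.44). The Atf4 difference of -1.30 was -0.83 without scaling.

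Across 13107 genes measured in both genotypes the tissue differences of d/d and f/f mice correlated at 0.777, a description over genes that share arrays, with an SD of 1.21 in d/d and 1.10 in f/f mice. Without regard to the d/d difference itself, 1136 genes (8.04%) stood at least 1 further toward heart in d/d and 1071 (7.58%) at least 1 further toward muscle. Of the former 712 were also at least 2-fold toward heart in d/d (5.04%) and of the latter 412 at least 2-fold toward muscle (2.92%). The split leaned on the processing: the 712 are 63.3% of both groups, a share that was 80.0% without scaling and 51.1% when the 20th percentile served as floor. At 2-fold each way, 26 genes were higher in heart in d/d and in muscle in f/f mice, and 12 the reverse. Among the 10 genes furthest toward heart, beyond those described, Ecrg4, a secreted peptide precursor, read 255 in d/d heart, 22.1 in d/d muscle, 41.7 in f/f heart and 137 in f/f muscle, Dio2, which activates thyroid hormone, read 244 in d/d heart, 19.8 in d/d muscle, 23.5 in f/f heart and 46.6 in f/f muscle, and Itgbl1, an integrin-like secreted protein, read 415 in d/d heart, 47.2 in d/d muscle, 40.8 in f/f heart and 99.4 in f/f muscle. The d/d heart stood highest in all 3. By the median over probe sets the d/d differences of Ecrg4 and Dio2 were 2.71 and 2.80, against 3.53 and 3.63. Furthest toward muscle were also Ramp1, a co-receptor of the calcitonin family, read 27.5 in d/d heart, 654 in d/d muscle, 93.7 in f/f heart and 387 in f/f muscle, and Stab2, a scavenger receptor of sinusoidal endothelium, read 9.37 in d/d heart, 76.5 in d/d muscle, 13.9 in f/f heart and 20.2 in f/f muscle. For Ramp1 heart was lower and muscle higher in d/d than in f/f, and for Stab2 d/d muscle was the high array. Tbc1d10c, an inhibitor of calcineurin, read 12.3 in d/d heart, 75.3 in d/d muscle, 70.9 in f/f heart and 41.4 in f/f muscle, and Mme, neprilysin, a peptidase that cleaves natriuretic peptides, read 5.92 in d/d heart, 44.6 in d/d muscle, 33.9 in f/f heart and 35.3 in f/f muscle. Another probe set of Mme stood 0.16 toward heart in d/d mice, and the medians over probe sets were -1.21 for Mme and -2.20 for Ramp1, against -2.57 and -4.57.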

How the data were processed

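Gene expression was measured on oligonucleotide arrays, 1 each for d/d heart, d/d muscle, f/f heart and f/f muscle, grouped by their titles and tissue labels. The deposited values are linear intensities, 1 for each of 45037 probe sets and 64 controls per array. The algorithm and any scaling the authors used are not given in the sources used here. No detection call or depth comes with them, and the number of arrays limits the precision.

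Each array was scaled to the mean 2% trimmed mean of the 4 without the controls (factors 0.850 to 1.22), set to a floor of 7.51 (the mean 40th percentile) and taken to log2. Of 45037 probe sets 34945 had 1 gene symbol in the platform annotation, 932 had several and 9160 were not listed. For a gene with several probe sets the brightest on average over the arrays was taken (18193 genes). Fits used limma 3.58.1 in R 4.3.3 on the 13497 genes that 2 or more arrays placed above the floor, and were tested on simulated data, and the rest used pandas 2.3.3. Alternatives covered scaling, the floor, the choice of probe set, the limma design and filter, and leaving out each array.

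The members and the 45 gene lists (927 entries, 846 matched) were chosen with earlier results of these data known. Named were, per direction, the 10 largest ratios, the 10 largest lower bounds and the 10 differences furthest beyond f/f, up to 4 members of each list per direction, isoform pairs, Sod2 and Ckm. Acot1, Actc1, Adra1b, Cat, Col1a1, Col1a2, Csrp3, Hcn2, Hopx, Kcnh2, Lep, Lgals3, Myoz2, Nmrk2, Nupr1, Pax7, Postn, Rcan1, Rgs2, Smpx, Sod1, Tbx5, Thbs4, Tnmd and Ucp1 lie outside that rule and were chosen after their values were seen. Protein sequences were not used here.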

Additional observations from a re-analysis of the deposited data

Results flagged for a closer look

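Among the members of the gene lists and the genes with the widest differences, 9 had a tissue difference that ran one way in d/d and the other way in f/f mice, each by at least 2-fold and with 1 array a group, so the difference between genotypes was not tested. Toward heart in d/d and toward muscle in f/f stood Comp (3.98 and -1.13 on the log2 scale), Ecrg4 (3.53 and -1.72), Cilp (3.33 and -2.56), Itgbl1 (3.13 and -1.28), P3h2 (2.89 and -1.20), Mthfd2 (2.09 and -1.52), Nupr1, a stress-induced chromatin protein (1.54 and -1.09), and Lox (1.49 and -2.92). Ces1d ran the other way, at -2.78 in d/d and 1.13 in f/f.

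Outside the gene probe sets, the array control for the murine B1 repeat read 3567 in d/d heart and 288 in d/d muscle after scaling, 3.63 higher on the log2 scale, and 2039 and 352 in f/f mice, 2.53 higher. The control for the B2 repeat read 5117 and 4905 in d/d heart and muscle and 4539 and 5179 in f/f.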

How the results depend on the processing

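Without scaling, 3748 genes passed 2-fold toward heart and 752 toward muscle, 291 passed 8-fold toward heart, 229 stood further toward muscle than in f/f, and limma called 2839 and 502. When the 20th percentile served as floor the 2-fold counts were 3210 and 2868, the 8-fold counts 298 and 237, the counts further toward heart and muscle 1482 and 1418, and limma called 0 and 0, with 1934 and 1557 at an unadjusted p under 0.05. With a pseudocount of 16 in place of the floor they were 1324 and 872, 105 toward heart at 8-fold, and 344 and 102. When the 60th percentile served as floor, 438 and 132 genes stood further toward heart and muscle. Limma called 641 toward heart after quantile normalization, 1771 and 1341 with a mean-variance trend, and 0 and 0 without the filter on low values (1925 and 1706 at an unadjusted p under 0.05). With each array left out in turn and tissue alone in the design it called 0 to 0 either way, with 1477 to 2244 toward heart and 1302 to 1818 toward muscle at an unadjusted p under 0.05. Of the 2-fold calls 59.0% stood toward heart, against 83.3% unscaled, 49.6% with median scaling and 54.8% with quantile normalization. Of 360 recomputed list medians 22, over 12 lists, changed sign. For 1 of them the median had passed 2-fold: slow skeletal genes went from 1.69 to -0.41 when probe sets of a gene were summarised by their median. Of 1080 recomputed values of named genes 11, over 8 genes, changed sign, 0 of them from a difference past 2-fold and the widest from 0.43 in size. The cause of these shifts was not tested. No paired analysis was possible because each group holds 1 array. Below the floor the arrays give only bounds.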

Other observations

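Among the widest ratios toward heart were genes outside the contractile and peptide groups. Ptgds, lipocalin-type prostaglandin D synthase, read 2803 in d/d heart, 19.7 in d/d muscle, 3173 in f/f heart and 25.1 in f/f muscle, 143-fold in d/d and 126-fold in f/f mice, a d/d log2 difference of 7.16, or 7.81 without shared-sequence probe sets. Ndrg4, a cytoplasmic protein needed for heart growth, read 3131 in d/d heart, 27.8 in d/d muscle, 1660.4 in f/f heart and 50.9 in f/f muscle. Rrad, a small GTPase that restrains calcium channels, was at least 68.7-fold higher in d/d heart and Tecrl, an enzyme of the reticulum linked to arrhythmia, at least 77.4-fold, with both muscles below the floor. Cidea, a lipid droplet protein of brown fat and mouse heart, read 490.2 in d/d heart, 8.42 in d/d muscle, 324 in f/f heart and 8.48 in f/f muscle. Toward muscle, Dusp13, a phosphatase of muscle and testis, read 9.01 in d/d heart, 726 in d/d muscle, 12.9 in f/f heart and 496 in f/f muscle. All of these kept the same tissue ahead in both genotypes.

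Of 21 measured immediate early genes 7 were higher by at least 2-fold in d/d heart and 1, Nr4a1, in d/d muscle (15.1% and 10.5% of all genes measured). Nr4a1, a nuclear receptor of exercised muscle, read 178 in d/d heart, 854 in d/d muscle, 266 in f/f heart and 899 in f/f muscle, while Junb read 71.5 in d/d heart, 14.2 in d/d muscle, 85.7 in f/f heart and 48.9 in f/f muscle, lowest in d/d muscle. Of 18 heat shock genes 4 were at least 2-fold toward heart and 1 toward muscle (15.1% and 10.5% of all genes measured). Hspb7, a small heat shock protein of striated muscle, read 4563 in d/d heart, 969.6 in d/d muscle, 3851 in f/f heart and 2794 in f/f muscle, so d/d muscle was the low array. Of 11 measured genes of the nerve-muscle contact 6 were higher by at least 2-fold in d/d muscle and 3 in d/d heart (10.5% and 15.1% of all genes measured). Chrna1, a subunit of the acetylcholine receptor, read 4.15 in d/d heart, 101 in d/d muscle, 7.06 in f/f heart and 66.9 in f/f muscle, at least 13.4-fold and 8.90-fold higher in muscle. Genes of the circadian clock had a median of -0.56 in d/d and -0.21 in f/f mice over 18 genes. Of 10092 probe sets with no single gene name, 23 were higher by at least 8-fold in d/d heart and 19 in d/d muscle.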
